A study of Arabidopsis thaliana with 4 samples.

Results

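The genes described are 10 auxin-induced Aux/IAA repressors of Arabidopsis thaliana, IAA1 to IAA7, IAA14, IAA19 and IAA29, taken by their locus identifiers. All 10 are among the 27654 genes of the deposited table. The fip1-2 group holds 2 libraries of whole seedlings of the mutant line fip1-2; FIP1 belongs to the complex that cuts nascent messenger RNA and adds its poly(A) tail. The control group holds 2 libraries of whole seedlings of a line with a reporter in which the SKP2B promoter drives GUS; the labels do not say whether fip1-2 carries this reporter, nor what kind of mutation it is. Both groups are of the Columbia ecotype and were grown in Murashige and Skoog medium, for a time given without its unit. Whether the replicates are independent cultures is not stated, and p-values then measure only the spread between these libraries, which may be technical.

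Aux/IAA proteins are short-lived repressors of auxin signalling. They bind auxin response factors (ARFs), the transcription factors that read the hormone, and bring the TOPLESS co-repressors to their target genes. Auxin joins an Aux/IAA protein to a receptor of the TIR1/AFB family, an F-box protein of an SCF ubiquitin ligase, and the repressor is then degraded. Many Aux/IAA genes are themselves switched on by auxin through ARFs bound to auxin response elements, so that their transcripts serve as readouts of the response and their products close a negative feedback loop.

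Because these elements lie in the DNA upstream of the genes, the 300 bases before each annotated gene start were read from the RefSeq TAIR10.1 assembly and searched on both strands for the canonical element TGTCTC and the high-affinity variant TGTCGG, 2 motifs that do not overlap each other. Either motif was found upstream of 5 of the 10 genes (IAA1, IAA3, IAA5, IAA6 and IAA19) and in 17.3% of the 27443 windows of the same length upstream of nuclear protein-coding genes. Counted with or without the other motif, TGTCTC was found in 5 members and 13% of all windows, and TGTCGG in 2 members and 4.91%. Those 2 members, IAA1 and IAA5, have both motifs. The windows of the 4 members with the largest falls in fip1-2 are shown, followed by that of IAA7, which has neither motif; capitals mark the matches, a match on the other strand reading GAGACA or CCGACA, and each window ends at the base before the gene start.
IAA6, upstream window at chr1:19673653-19673952, minus strand: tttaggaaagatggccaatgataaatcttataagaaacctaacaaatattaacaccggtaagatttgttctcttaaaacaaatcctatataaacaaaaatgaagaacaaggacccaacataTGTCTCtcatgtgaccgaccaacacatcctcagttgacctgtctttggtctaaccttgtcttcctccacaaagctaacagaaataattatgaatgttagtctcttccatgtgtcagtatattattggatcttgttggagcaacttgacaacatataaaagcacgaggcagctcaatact
IAA19, upstream window at chr3:5263701-5264000, plus strand: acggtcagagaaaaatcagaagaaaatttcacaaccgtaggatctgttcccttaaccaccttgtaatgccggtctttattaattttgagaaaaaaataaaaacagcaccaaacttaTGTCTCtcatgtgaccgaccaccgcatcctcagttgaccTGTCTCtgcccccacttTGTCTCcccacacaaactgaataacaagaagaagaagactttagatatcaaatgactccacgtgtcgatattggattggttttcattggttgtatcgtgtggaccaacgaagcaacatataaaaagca
IAA5, upstream window at chr1:5366498-5366797, minus strand: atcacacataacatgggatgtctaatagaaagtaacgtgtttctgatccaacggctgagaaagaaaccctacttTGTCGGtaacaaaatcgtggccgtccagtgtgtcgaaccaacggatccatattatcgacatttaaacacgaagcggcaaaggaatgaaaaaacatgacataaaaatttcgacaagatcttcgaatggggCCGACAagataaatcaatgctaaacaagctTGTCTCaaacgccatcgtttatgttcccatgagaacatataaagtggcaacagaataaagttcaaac
IAA1, upstream window at chr4:8360696-8360995, plus strand: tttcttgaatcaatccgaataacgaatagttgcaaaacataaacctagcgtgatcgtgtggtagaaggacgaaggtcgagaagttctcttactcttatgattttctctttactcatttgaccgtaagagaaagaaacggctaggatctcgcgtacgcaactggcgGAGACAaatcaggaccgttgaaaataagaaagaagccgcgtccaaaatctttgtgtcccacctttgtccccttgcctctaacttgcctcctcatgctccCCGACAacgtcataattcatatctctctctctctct
IAA7, upstream window at chr3:8194306-8194605, plus strand: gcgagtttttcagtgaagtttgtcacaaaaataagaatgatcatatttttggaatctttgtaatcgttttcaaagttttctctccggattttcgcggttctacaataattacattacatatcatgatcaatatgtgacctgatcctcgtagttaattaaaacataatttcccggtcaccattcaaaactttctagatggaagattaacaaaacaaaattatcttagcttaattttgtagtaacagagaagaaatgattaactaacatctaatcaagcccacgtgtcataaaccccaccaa
IAA6 and IAA19, on chromosomes 1 and 3, share an unbroken run of 23 bases around a match, taTGTCTCtcatgtgaccgacca, which begins 181 bases before the start of IAA6 and 186 bases before that of IAA19. The next longest run shared by the windows of 2 members has 12 bases. A match is a description of the letters in the window and does not show that a factor binds there.

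All 10 genes fell in fip1-2. Against them stand 26.8% of the 19931 genes tested that were lower, by the same call (limma on log2(value + 2), Benjamini-Hochberg adjusted p under 0.05). In all 10, both fip1-2 libraries lay below both control libraries, as they did in 39% of all genes tested. The median log2 fold change was -0.67 over the 10 genes and -0.004 over all genes tested, and 3 members (IAA5, IAA6 and IAA19) were at least 2-fold lower by the fit, against 3.76% of all genes. The summed normalised count of the 10 genes was 12138 and 12489 in the fip1-2 libraries, against 17751 and 17822 in the control libraries, a difference of -30.8% between the means. As a share of the normalised total it was 0.0567% and 0.0576% in fip1-2 and 0.0877% and 0.0870% in control; an exact permutation test of 2 libraries against 2 gave p = 0.333 (two-sided), the smallest it can give. In whole seedlings, fewer cells that express a gene and less RNA of it per cell cannot be told apart.

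Recovered reads per library ran from 20874114 to 21104606. FIP1 itself (AT5G58040), with 5217 and 5145 normalised counts in the fip1-2 libraries and 1796 and 1912 in the control libraries, was higher in the mutant (limma adjusted p = 2.98e-11, log2 fold change 1.48 ± 0.05 SE); a count over the whole gene is no check of the mutation. Summed tissue markers were higher in both fip1-2 libraries for 4 of 5 lists, and those of the root meristem overlapped between genotypes. The sum of 6 shoot photosynthesis genes was 513339 and 536437 in fip1-2 and 391054 and 393817 in control, that of 5 root hair genes 6373 to 7994 in fip1-2 and 2301 to 2320 in control, that of 5 endodermis genes 2515 to 2629 in fip1-2 and 2035 to 2069 in control, that of 5 root meristem genes 362 to 405 in fip1-2 and 304 to 420 in control, and that of 5 seed genes 1198 to 3231 in fip1-2 and 25.2 to 74.9 in control. Of these markers, SESA3 (seed) was at 0 in both control libraries, and RGF1 (root meristem) was at 0 in 1 library of each group. The part of tissue makeup in the fall of the Aux/IAA genes was not tested.

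**Figure D1:**
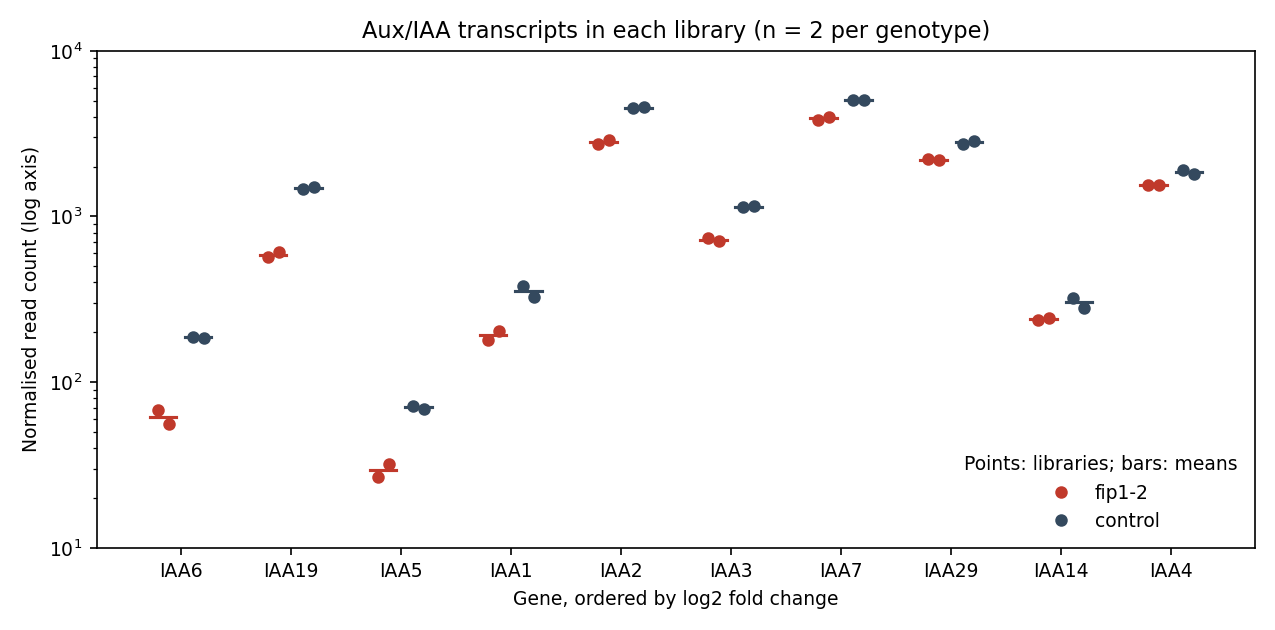
Normalised read counts of the 10 Aux/IAA genes in each library, on a log axis, ordered from the largest fall to the smallest, with fip1-2 left of control; points are libraries and bars are means of 2. In all 10 genes both fip1-2 points lie below both control points, with the widest gap in IAA6 (67.6 and 56.0 against 188 and 185).

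The steepest falls were those of IAA6, IAA19 and IAA5, whose coding sequences resemble each other. Identities over the aligned bases were 76.3% for IAA6 with IAA19, 71.6% for IAA5 with IAA19 and 69.7% for IAA5 with IAA6. Such values are not particular to these genes, since IAA1 with IAA4 had 77% and IAA2 with IAA4 had 74%. IAA6 (AT1G52830), also called SHY1 and known from a gain-of-function mutant that alters light-dependent growth of the hypocotyl, stood at 67.6 and 56.0 normalised counts in fip1-2, against 188 and 185 in control. Both mutant libraries were far under both control libraries, and the mean of 61.8 ± 8.18 in fip1-2, against 187 ± 2.06 in control (SD, n = 2 each), was 66.9% lower. The log2 fold change was -1.57 ± 0.15 SE (limma adjusted p = 6.88e-07), and 1.05% of the genes tested had a lower one. IAA19 (AT3G15540), also called MSG2, whose gain-of-function mutant loses tropic bending of the hypocotyl, stood at 566 and 611 in fip1-2, against 1472 and 1498 in control. The replicates of each genotype were close to each other beside the gap between genotypes, and the mean was 60.3% lower in fip1-2 (limma adjusted p = 6.21e-10, log2 fold change -1.33 ± 0.06 SE). IAA5 (AT1G15580), an auxin-inducible gene of the same branch and the least abundant of the 10, stood at 26.6 and 32.2 in fip1-2, against 72.1 and 68.9 in control. These values rest on 26 and 31 reads in fip1-2 and on 75 and 71 in control, and the standard error was the widest of the members (log2 fold change -1.21 ± 0.21 SE, limma adjusted p = 0.000229). In the reference annotation IAA5 overlaps CYCA2;3 (AT1G15570), a cyclin gene on the opposite strand, and the protocol describes no step that marks strand; CYCA2;3 stood at 316 and 305 in fip1-2 and at 309 and 311 in control.

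IAA1 and IAA2, the pair with the most similar coding sequences (84.5% identity over 496 aligned bases), fell by 45.7% and 37.7% in the means; the difference between them was not tested. IAA1 (AT4G14560), in which the gain-of-function mutation axr5 makes plants auxin resistant, stood at 179 and 204 in fip1-2, against 379 and 328 in control. The groups did not overlap, although the control libraries were further apart than the mutant ones (limma adjusted p = 9.51e-06, log2 fold change -0.87 ± 0.11 SE). IAA2 (AT3G23030), an early auxin-induced gene, stood at 2740.2 and 2909 in fip1-2, against 4485 and 4585 in control. Its fall (log2 fold change -0.68 ± 0.05 SE, limma adjusted p = 6.25e-08) took the largest number of normalised counts of any of the 10. The ratio of IAA1 to IAA2 was 0.0654 and 0.0703 in fip1-2, against 0.0844 and 0.0715 in control, and the higher fip1-2 ratio nearly met the lower control ratio.

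IAA3 and IAA4 are also close relatives (81.5% identity over 558 aligned bases), and their values parted. IAA3 (AT1G04240), listed in RefSeq as SHY2, restrains auxin responses in the root meristem, where cytokinin acts through it on meristem size. It stood at 739 and 709 in fip1-2, against 1143 and 1150.3 in control, 36.9% lower in the means (log2 fold change -0.66 ± 0.06 SE, limma adjusted p = 4.96e-07). IAA4 (AT5G43700), listed as ATAUX2-11, stood at 1541 and 1555 in fip1-2, against 1910 and 1804 in control, a difference of 16.7% (log2 fold change -0.26 ± 0.05 SE, limma adjusted p = 0.000962). That was the smallest fall of the 10, and its call was lost without the length and GC trend (-0.08, limma adjusted p = 0.240). The ratio of IAA3 to IAA4 was 0.479 and 0.456 in fip1-2, against 0.599 and 0.637 in control, lower in both mutant libraries than in both control libraries; the difference between the 2 fold changes was not tested. IAA3 overlaps AT1G04230 on the opposite strand in the annotation, and that gene stood at 94.2 and 104 in fip1-2 and at 176 and 187 in control (log2 fold change -0.86 ± 0.13 SE, limma adjusted p = 6.62e-05), so that without strand their reads cannot be told apart where they overlap.

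IAA7 and IAA14, with 81.9% identity over 690 aligned bases, showed smaller falls of like size. IAA7 (AT3G23050) is AXR2, known from gain-of-function mutants with agravitropic roots and shoots, and IAA14 (AT4G14550) is SLR, which holds back lateral root initiation by repressing ARF7 and ARF19. IAA7 stood at 3832 and 3982 in fip1-2, against 5029.7 and 5059 in control (log2 fold change -0.37 ± 0.05 SE, limma adjusted p = 1.8e-05). IAA14 stood at 238 and 244 in fip1-2, against 323 and 282 in control (log2 fold change -0.32 ± 0.10 SE, limma adjusted p = 0.0132). The control libraries of IAA14 differed from each other by slightly more than the lower of them differed from the higher fip1-2 library, and the call was lost without control replicate 1 (-0.23, limma adjusted p = 0.139), without fip1-2 replicate 1 (-0.31, limma adjusted p = 0.0731), with DESeq2 (-0.33, adjusted p = 0.122) and without the length and GC trend (-0.23, limma adjusted p = 0.0717). The ratio of IAA7 to IAA14 was 16.1 and 16.3 in fip1-2, against 15.6 and 17.9 in control, and the groups overlapped. IAA29 (AT4G32280), known as a target of the light-regulated PIF factors in shade and warmth, stood at 2209 and 2186 in fip1-2, against 2749.8 and 2859.6 in control. It was 21.7% lower in the means (log2 fold change -0.35 ± 0.05 SE, limma adjusted p = 4.18e-05).

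Log2 fold changes in these libraries rose with transcript length across genes (Spearman correlation 0.299 across genes, which are not independent replicates), and Aux/IAA transcripts are short. The longest annotated transcript of the 10 genes had a median of 1304 bases, against 1748 over all genes tested. With a trend in length and GC content removed from each library, 8 of the 10 were called lower, against 28.6% of the 19819 genes then tested, and the median of the members was -0.53, against -0.04 over all genes. IAA4 and IAA14 no longer passed. IAA29, at -0.18, moved by more than 1.5 times and still passed (limma adjusted p = 0.00828), and the largest falls kept their order, at -1.33 for IAA6, -1.18 for IAA19 and -0.97 for IAA5.

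**Figure D2:**
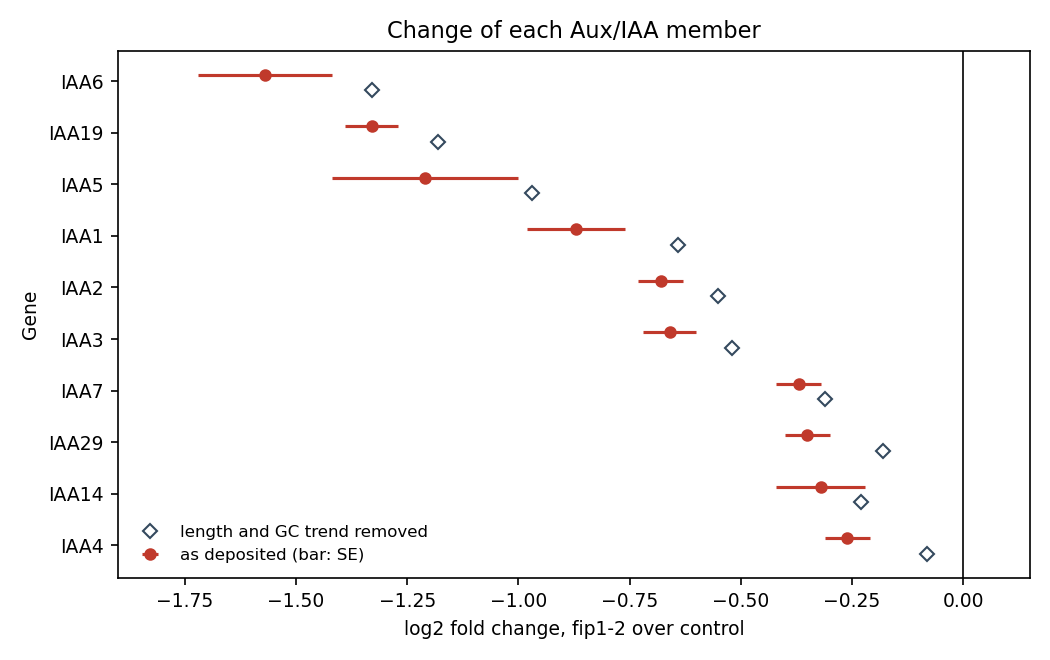
Log2 fold change of each member, fip1-2 over control, as deposited (filled circles, bars are standard errors of the limma fit) and with the trend in transcript length and GC content removed (open diamonds). All diamonds lie closer to 0 than the circles, from -1.33 for IAA6 to -0.08 for IAA4.

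The members with an element match in the 300 bases upstream were those that fell most, with an overlap at the border. Log2 fold changes ran from -1.57 to -0.66 in the 5 genes with a match (median -1.21) and from -0.68 to -0.26 in the 5 without (median -0.35). IAA2, without a match, and IAA3, with 1, met at -0.68 and -0.66. After removal of the trend in length and GC the medians were -0.97 with a match and -0.23 without. Transcript length moved with the split, from 781 to 1355 bases in the genes with a match and from 1252 to 1726 in those without, and its part was not tested beyond that removal. Over all genes tested the medians were close: the 3486 genes with a match had a median log2 fold change of 0.01, with 25.4% called lower, and the 16331 without had -0.01, with 27.2% called lower. In windows of 1000 bases, 8 of the 10 members and 48.3% of all genes had a match. Log2 fold changes of these 8 members ran from -1.57 to -0.26 (median -0.78), the last being that of IAA4. The 2 without a match, IAA7 and IAA14 (-0.37 and -0.32), lay within that range. IAA3 and IAA4 each carried 2 matches to TGTCTC that began 8 bases apart, 394 and 386 bases upstream of IAA3 and 523 and 515 bases upstream of IAA4.

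**Figure D3:**
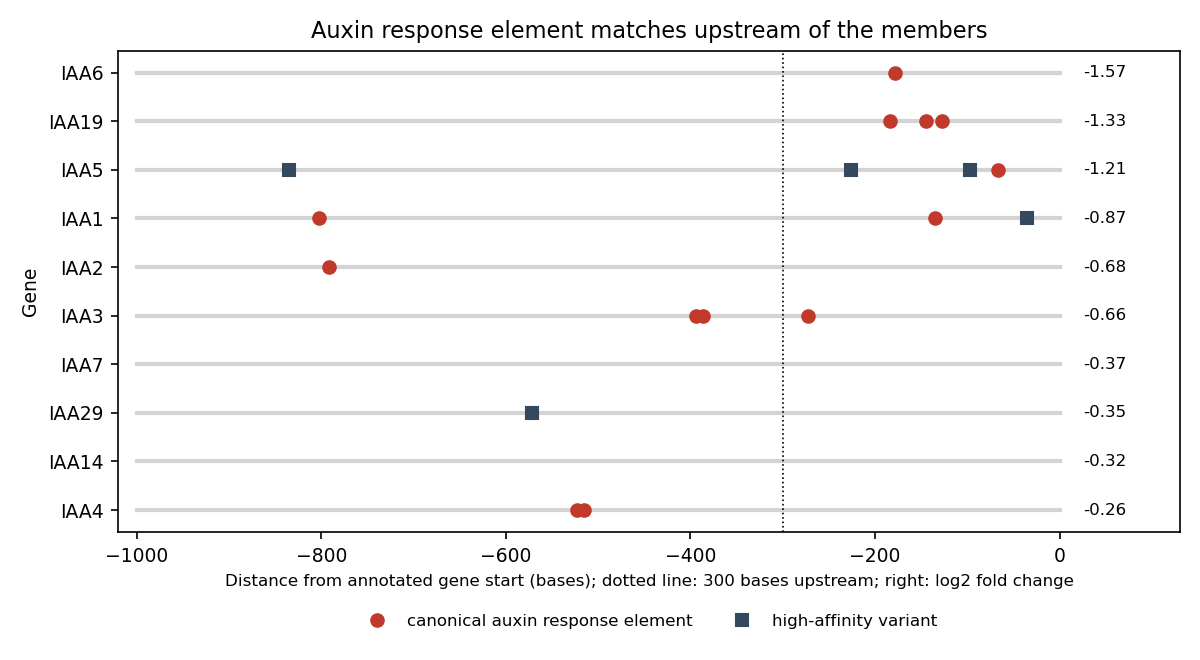
Positions of matches to the canonical auxin response element (circles) and to its high-affinity variant (squares) on either strand in the 1000 bases before each annotated gene start, with the members ordered from the largest fall to the smallest and their log2 fold changes (fip1-2 over control) at the right. Left of the dotted line at 300 bases lie the only matches of IAA2, IAA29 and IAA4, and IAA7 and IAA14 have none.

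Of the 10 genes, 5 stand in head-to-head pairs of Aux/IAA genes with no protein-coding gene annotated between them: IAA1 with IAA14 on chromosome 4, 10.7 kb apart, IAA2 with IAA7 on chromosome 3, 12.5 kb apart, and IAA3 with IAA17 on chromosome 1, 6.39 kb apart. In each pair the partners differed. IAA1 and IAA14 had log2 fold changes of -0.87 and -0.32, and IAA2 and IAA7 of -0.68 and -0.37. IAA17 (AT1G04250), known as AXR3 for its auxin-resistant mutants and no member here, stood at 830 and 778 in fip1-2 and at 809 and 804 in control, where its neighbour IAA3 was 36.9% lower (limma adjusted p = 0.956 for IAA17, with a log2 fold change of 0.00 ± 0.06 SE). The differences within pairs were not tested.

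Per kilobase of the longest annotated transcript, 3 pairs of members stood in a different order in the 2 genotypes. In fip1-2 the mean normalised count per kb was highest for IAA7 at 2532, then IAA2 at 2080, IAA29 at 1755, IAA4 at 1141, IAA19 at 583, IAA3 at 534, IAA1 at 203, IAA14 at 139, IAA6 at 72.1 and IAA5 at 37.6. In control the mean was 3340 for IAA2, 3269 for IAA7, 2240 for IAA29, 1470 for IAA19, 1370 for IAA4, 846 for IAA3, 373 for IAA1, 218 for IAA6, 175 for IAA14 and 90.3 for IAA5. The pairs were IAA2 with IAA7, IAA19 with IAA4, and IAA6 with IAA14. Without division by length these pairs kept the same order in both genotypes. In control the mean normalised count was 5044 for IAA7 and 4535 for IAA2, and 1857 for IAA4 and 1485 for IAA19. For IAA14 and IAA6 it was 303 and 187. In fip1-2 the means were 3907 and 2825, 1548 and 589, and 241 and 61.8 in the same sequence. Whether division by length applies is not settled, since the design text names poly(A) tags. Some neighbours were no further apart than their replicates. In fip1-2 IAA19 stood at 561 and 605 per kb, and IAA3 at 545 and 523. In control IAA2 stood at 3303 and 3377 and IAA7 at 3260 and 3279, and likewise IAA19 at 1457 and 1483 and IAA4 at 1409 and 1331. IAA7 made up 31.6% and 31.9% of the summed normalised count of the 10 genes in fip1-2, against 28.3% and 28.4% in control, and IAA19 4.67% and 4.89% in fip1-2, against 8.29% and 8.40% in control.

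The other Aux/IAA genes were lower less uniformly. Of 19 such genes, 16 passed the filter on low values, and of these 7 fell, 3 rose and 6 did not pass the test, beside 26.8% lower and 27% higher over all genes tested, with a median log2 fold change of -0.21; the difference from the 10 members was not tested. IAA32, a family member that lacks the degron through which TIR1/AFB receptors act, fell to 18.4 and 13.5 in fip1-2, against 87.4 and 63.1 in control (log2 fold change -2.10 ± 0.26 SE, limma adjusted p = 8.98e-06). IAA16 fell to 4562 and 4676 in fip1-2, against 5766 and 6152 in control (-0.37 ± 0.05 SE, limma adjusted p = 2.88e-05), and IAA28, known from a gain-of-function mutant with few lateral roots, to 448 and 385 in fip1-2, against 602 and 680 in control (-0.62 ± 0.09 SE, limma adjusted p = 3.65e-05). The genes that rose were IAA8, IAA9 and IAA12, with log2 fold changes from 0.16 to 0.32; IAA12 is BDL, the partner of ARF5 in the embryonic root. Without fip1-2 replicate 2 fewer of these genes were called higher. With DESeq2 4 were called lower, beside 3443 of all 19931 genes tested.

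Upstream in the pathway, receptor genes and SCF subunits fell in 6 of 10 cases and rose in 2, beside 26.8% lower and 27% higher over all genes tested, with a median of -0.26. Without the length and GC trend 7 were lower and 2 higher, with a median of -0.42, and TIR1 stood at -0.52 in place of -0.22. Of all genes then tested, 28.6% were lower and 22% higher. The F-box receptor genes TIR1, AFB2, AFB3 and AFB5 fell with log2 fold changes from -0.38 to -0.22, and ASK1, the SKP1-like adaptor of the ligase, fell to 1630 and 1789 in fip1-2, against 2818 and 2747 in control (-0.70 ± 0.06 SE, limma adjusted p = 1.36e-07). RBX1, its RING subunit, fell with a log2 fold change of -0.57, while CUL1, the cullin, and AXR1, which activates the RUB modification of the cullin, rose by 0.27 and 0.22 on the log2 scale. With DESeq2 1 of these 10 genes was called higher, beside 3789 of all 19931 genes tested. Fewer were also called higher without fip1-2 replicate 1.

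The ARF genes, whose products the repressors bind, went the other way as deposited, with 8 of 15 higher and 2 lower. Their median was 0.27, and over all genes tested 27% were higher and 26.8% lower. Without the length and GC trend 4 were lower and none higher by limma (5 and 2 at an unadjusted p under 0.05). The median was then -0.10. That 4 of 15 stands near the 28.6% of all genes then lower, beside 22% higher. ARF3 had the largest log2 fold change and stood at 827 and 852 in fip1-2, against 636 and 592 in control (0.45 ± 0.07 SE, limma adjusted p = 5.81e-05). The activators ARF6 and ARF7 rose by 0.36 and 0.32 and stood at 0.01 and -0.13 with the trend removed. ARF16 was lower both ways (-0.41 and -0.55). Of the 5 TOPLESS co-repressor genes, TPL and TPR4 rose (0.36 and 0.61), and 3 did not pass, beside 27% of all genes higher. With the trend removed TPR4 was higher (0.29) and TPR1, TPR2 and TPR3 were lower (-0.26, -0.41 and -0.27). Of all genes, 22% were then higher and 28.6% lower. The number of ARF genes called lower was 1 with DESeq2, beside 3443 of all 19931 genes tested. It was also 1 without the filter on low values, beside 4869 of 23546. Fewer were called lower without control replicate 2 as well.

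Other early auxin targets fell beside the Aux/IAA genes. Of 11, 10 were tested. Of these, 7 fell and 3 did not pass, with a median of -0.54, beside 26.8% lower and 27% higher over all genes tested. With DESeq2 5 were called lower, beside 3443 of all 19931 genes tested. GH3.3, for an enzyme that joins auxin to amino acids, fell to 738 and 777 in fip1-2, against 1846 and 2093 in control (-1.37 ± 0.07 SE, limma adjusted p = 8e-10). GH3.5 and GH3.2, of the same enzyme family, fell with log2 fold changes of -0.55 and -1.04. ACS4, an auxin-induced gene of ethylene synthesis, and HAT2, a homeobox gene, fell with -0.82 and -0.25. GH3.6 had 0.01, LBD16, a lateral root gene, 0.35 and LBD18 0.24, none passing. LBD29 had the largest fall of the list (-1.52 ± 0.46 SE, limma adjusted p = 0.0116), on few reads. These were 3 and 11 in fip1-2 and 28 and 18 in control. Among auxin synthesis genes 8 of 11 were tested, and YUC5, YUC8 and YUC9, flavin monooxygenases of the last step, fell (-0.60, -0.63 and -0.93), while the other 5 did not pass; 3 of 8 stands near the 26.8% of all genes that were lower. In each of 4 alternatives 1 synthesis gene was called higher, without the filter on low values, with robust variance estimation, with a replicate block and without control replicate 2. YUC1 was at 0 in both control libraries and at 7.17 and 7.27 in fip1-2, under the filter. Of 9 auxin transport genes 5 rose and 1, the influx carrier gene AUX1, fell (-0.46), beside 27% higher and 26.8% lower over all genes tested. PIN4, an efflux carrier gene, rose by 0.35. With the trend removed 3 transport genes were lower and none higher by limma (3 and 1 at an unadjusted p under 0.05). That 3 of 9 stands near the 28.6% of all genes then lower, beside 22% higher. With quantile normalization 4 transport genes were called higher, beside 5027 of all 19931 genes. Without the filter on low values 4 were, beside 5161 of 23546. Fewer than 5 were also called higher without control replicate 2 and without either fip1-2 library.

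Among the 73 tested genes of these other lists, those closest to the mean profile of the 10 members over the 4 libraries were ASK1, YUC9 and GH3.5, at Euclidean distances of 0.0899, 0.209 and 0.216 in centred log2 values. With 4 libraries this measure rests mostly on the size of the difference between genotypes.

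**Figure D4:**
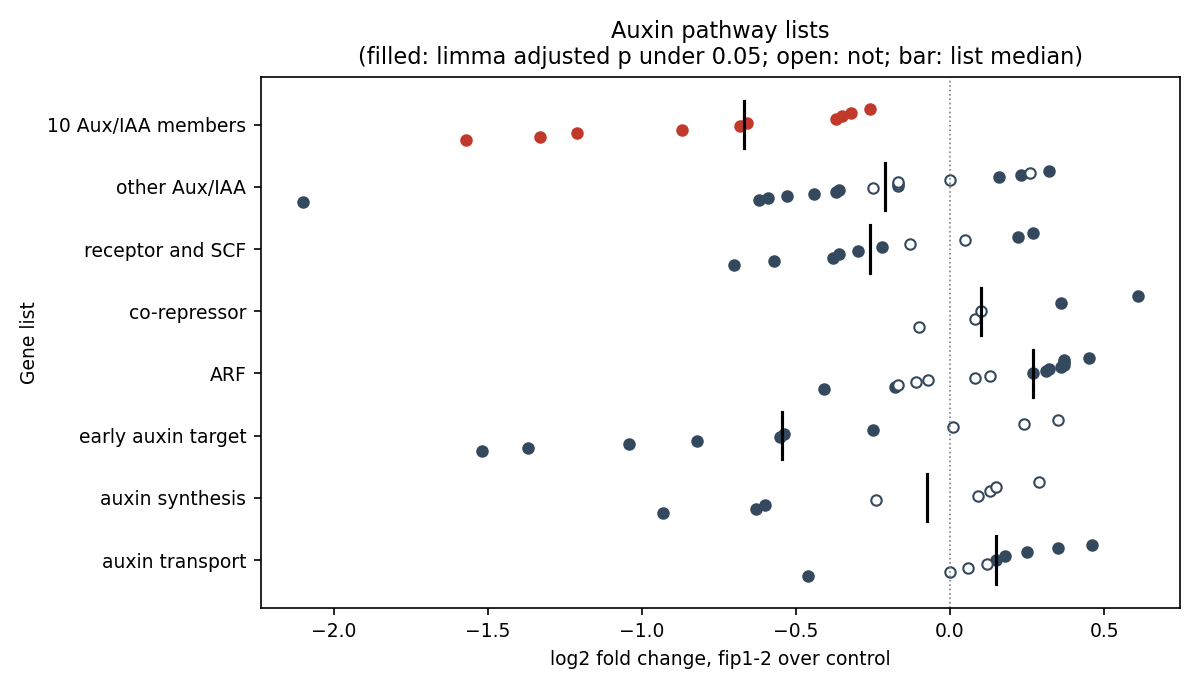
Log2 fold changes, fip1-2 over control, of the 10 Aux/IAA members (red) and of the tested genes of the other auxin pathway lists (blue), with filled points for a limma adjusted p under 0.05, open points for the rest and a bar at each list's median. The members lie from -1.57 to -0.26, whereas the ARF genes, whose rises were lost without the length and GC trend, lie from -0.41 to 0.45.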

How the data were processed

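RNA of whole seedlings was sequenced in 4 libraries, 2 of fip1-2 and 2 of control, grouped by the titles. The design text of the series names poly(A) tags, while the extract protocol describes fragmented mRNA. Per the submitters' processing notes, the tools were HISAT2, HTSeq, edgeR, FastQC and CASAVA 1.4, whose roles are not listed. The genome build, the annotation and the options for counting are not given in the sources used. The deposited signal is a read count per gene, per the file headers, that the authors divided by a size factor per library. All values (100%) were whole multiples, within 1e-06, of the smallest value of their column, so whole reads were recovered. Recovered reads per library are given with the results and, with the spread between replicates, limit the precision.

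Genes with a mean of at least 10 (19931 of 27654) went into limma 3.58.1 in R 4.3.3 as log2(value + 2) (variance trend, genotype as the only term, two-sided), and p-values were adjusted over all of them by Benjamini-Hochberg. The scale understates changes of weak genes. All 10 members passed the filter. As alternatives, edgeR 4.0.16 and DESeq2 1.42.0 were run on the recovered reads; edgeR called 10731 genes and DESeq2 7232, of which 3443 were lower in fip1-2. The fit was tested on simulated counts. Replicates were counted separately, since their reads differed beyond counting noise, with a chi-square per gene of 2.72 between the fip1-2 libraries and 2.97 between the control libraries (counting noise alone gives about 1); this does not show separate cultures. Names, lengths and sequences come from RefSeq TAIR10.1, in which 27444 identifiers were found; its coordinates are given only for the sequences printed.

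The members, the gene lists, the tests and the rule for named genes were chosen with earlier results of these data known. The rule takes all members, up to 3 genes with the smallest p from each other list, IAA17 as a tandem neighbour, and the 3 genes of the other lists nearest in profile. Further genes were named after their values were seen. A transport gene that the rule would name is not reported here.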

Additional observations from a re-analysis of the deposited data

How the results depend on the processing

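Over 15 alternatives the number of members called lower was 9 with DESeq2, 8 with the length and GC trend removed, 9 or 10 when single libraries were left out, 9 of the 9 tested with a filter on a mean of at least 50 (which left out IAA5), and otherwise 10. Of all 19931 genes tested, 5342 were called lower in the main fit, 5366 with edgeR and 3443 with DESeq2. With the trend removed it was 5665 of 19819, and with the filter on a mean of at least 50 it was 4914 of 17192. No member was called higher by limma, edgeR or DESeq2, also at an unadjusted p under 0.05. The median log2 fold change of the members was -0.72 with quantile normalization and -0.53 without the trend in length and GC, and ran from -0.68 to -0.66 without single libraries. All members stayed below 0. IAA4 lost its call with the trend removed, IAA14 with that, with DESeq2, without control replicate 1 and without fip1-2 replicate 1. Replicate numbers gave no sign of pairing (correlation of replicate differences between genotypes -0.0117), and with a replicate block 10 members were called lower and the median was -0.67. The cause of these changes was not tested. Depth limits IAA5 most, with 26 and 31 reads in fip1-2.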
